A study of Sus scrofa with 36 samples.

Results

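CD2, LCK, CD247, NKG7 and GNLY, 5 transcripts known from T cells and natural killer (NK) cells, were followed in the subcutaneous fat of 36 pigs. They were taken by gene symbol, and all 5 had a row among the 12253 genes of the deposited RNA-Seq table (ENSSSCG00000006736, ENSSSCG00000003608, ENSSSCG00000006309, ENSSSCG00000003231 and ENSSSCG00000008228, in the order of the symbols above). The pigs were F2 animals of an intercross of Duroc and Göttingen minipig and were chosen from the ends and the middle of a genetic index of obesity. The study compared 12 lean pigs (state Low in the labels, 7 males and 5 females), 12 intermediate pigs (Mean, 6 males and 6 females) and 12 obese pigs (High, 6 males and 6 females). All were slaughtered at about the same weight, so lean pigs were older, and age and group cannot be told apart. A group could hold full sibs, and which pigs these were is not given in the sources used here, so the tests treat all pigs as unrelated. Each pig gave 1 library of 8735838 to 11755925 reads over these genes. Values below are normalized counts, which are reads recovered from the deposited log2 values and divided by the size factor of the library. They are not scaled to transcript length, so levels are compared between pigs. Levels are ranked among genes only to show which counts are low.

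T cells recognise antigen through a receptor whose signal is passed on inside the cell, and killer T cells and NK cells then release toxic granules onto their target. In healthy fat both are a minority beside adipocytes, vessel cells and macrophages, and T cells of the CD8 type are known to gather in the fat of obese rodents. CD2 is an adhesion molecule of the surface of T and NK cells. CD247 encodes the zeta chain of the T cell receptor complex, and LCK is the kinase that starts its signal. NKG7 is a membrane protein of cytotoxic granules. GNLY encodes granulysin, a granule peptide called NK-lysin in pigs, which perforates membranes of microbes and target cells.

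The clearest pattern was 3 obese females, here obese 1, obese 2 and obese 3, which held ranks 1 to 4 among the 36 pigs for every one of the 5 transcripts. They were the 3 highest pigs for CD2, CD247 and GNLY. The other 9 obese pigs, males and females, overlapped the lean and intermediate pigs for each transcript. These 3 pigs were found from the values of the transcripts themselves, so they are described here pig by pig without a test. Whether they were full sibs is not given in the sources used here, so they may not be 3 independent pigs. The results below are given with and without them, and since they are the highest pigs, leaving them out had to lower the level of the obese group, that of the females, and the correlation of any pair of transcripts for which they stand apart. Their libraries of 11001415, 11755925 and 11357299 reads ranked 8, 1 and 5 in depth, and size factors are divided out of all counts given here.

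CD2 was 514, 405 and 251 normalized counts in obese 1, 2 and 3. The highest of the other 33 pigs was an intermediate female at 160, and the median of these 33 was 51.9. The lean pigs lay between 27.3 and 107 (median 45.3) and the intermediate pigs between 14.8 and 160 (median 49.3). In the obese pigs values went from 12.1, the lowest of the series, to 514, the highest (median 60.4). The obese group thus held both ends of the range, while the medians of the groups lay close together.

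LCK was 293, 226 and 53.6 in the same 3 females, against a median of 24.4 and a highest value of 85.9 in the other 33 pigs. Here obese 1 and 2 stood far above all others, and obese 3 was exceeded by an intermediate female. The lean pigs had 14.2 to 52.4 (median 24.6), the intermediate pigs 7.42 to 85.9 (median 24.7) and the obese pigs 11.1 to 293 (median 28.4). These were low counts, with as few as 7 reads in a pig.

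GNLY was 528, 835 and 515 in obese 1, 2 and 3, and no other pig exceeded 163. Lean pigs had 39.6 to 163 (median 79.2), intermediate pigs 30.9 to 150 (median 73.6) and obese pigs 32.7 to 835 (median 106). The 32.7 came from another obese female, obese 7. Obese females therefore held the highest values of this granule gene and also 1 of the lowest.

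NKG7 was 401, 464 and 372 in the 3 females, but here they did not stand apart. The highest pig was an intermediate female with 507, and a lean male, lean 2, had 315. Lean pigs had 50.2 to 315 (median 93.9), intermediate pigs 66.8 to 507 (median 203) and obese pigs 97.0 to 464 (median 219). All 12 obese and 9 of the 12 intermediate pigs lay above the lean median. NKG7 was the only one of the 5 transcripts for which this held for all obese pigs.

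CD247 was 942, 988 and 895 in the 3 females, only just above the next pig at 884. It ranged from 444 to 855 in the lean pigs, from 293 to 884 in the intermediate pigs and from 391 to 988 in the obese pigs, with medians of 610, 627 and 545. The 6 obese males lay between 391 and 545, a 1.39-fold range, where the other transcripts had ranges of 2.75-fold to 5.04-fold in these males.

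**Figure D1:**
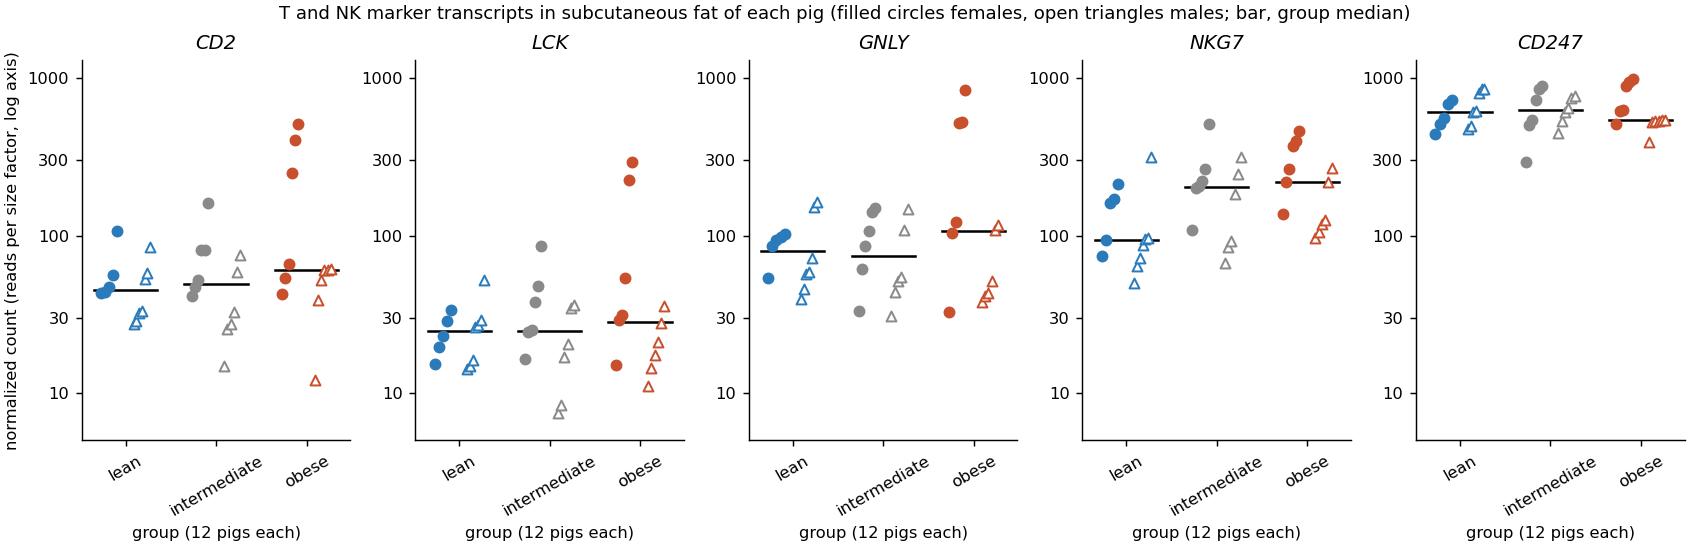
Normalized count of each transcript in each pig (log axis) by group, with females as filled circles, males as open triangles and the group median as a bar. Obese females 1, 2 and 3 stand above all other pigs for CD2 (251 to 514) and GNLY (515 to 835), while for NKG7 all 12 obese pigs lie above the lean median of 93.9.

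Some other transcripts of killer lymphocytes were high in the same females, and TBX21, CTSW and CD244 are named here after their values were seen. PRF1, the pore-forming perforin, was 143, 178 and 59.8 in them against at most 35.5 in the other 33 pigs. TBX21, the transcription factor T-bet of cytotoxic cells, was 198, 217 and 73.2 against at most 62.2, and CTSW, a protease of killer cells, was 70.0, 64.6 and 47.3 against at most 33.0. CD244, a receptor of NK cells, ranked 1, 2 and 6. CD8A, the co-receptor of killer T cells, was 516 and 405 in obese 1 and 2, and 104 in obese 3, which an intermediate female exceeded with 203. PTPRC, the CD45 molecule of all white blood cells, ranked 2, 1 and 4. Sums over whole lists set the 3 pigs apart less, but such a sum mostly follows the genes with the most reads. In obese 2, PRF1 was 178 and TBX21 217 of a cytotoxic sum of 9720. The summed counts of the 10 cytotoxic genes ranked 9, 1 and 4, those of 3 T cell surface genes 1, 3 and 7, and those of 13 genes of T cell receptor signalling 6, 3 and 7. The summed counts of 14 macrophage and monocyte genes ranked 22, 7 and 1 of 36 in them, and those of 5 B and plasma cell genes 29, 28 and 21. CCL19, a chemokine of lymph node stroma, ranked 2, 8 and 34, the 2 muscle genes 20, 12 and 32, and the 2 red cell genes 14, 22 and 28. The 6 adipocyte genes ranked 1, 6 and 7 and so were high in all 3 pigs. CD79A, MS4A1, CCL21 and ADIPOQ, which define B cells, lymph node stroma and adipocytes, are not analysed here. IL7R, the receptor of resting T cells for interleukin 7, ranked 6, 13 and 3. The tissue is whole fat, so more cells of a type and more RNA per cell cannot be told apart. The part of other cells in the high values was not tested.

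Whether the transcripts differed between obese and lean pigs was asked gene by gene with limma on the log2 values. The model held group and sex, and p-values were adjusted by Benjamini-Hochberg over all 12253 genes. Unlike the normalized counts, the deposited log2 values keep part of the difference in depth between libraries. Their median over all genes went from 26.61 in obese 7 (size factor 0.796) to 26.93 in lean 6 (size factor 1.177). The fits and correlations below use these log2 values. None of the 5 passed at an adjusted p of 0.05, and 0.0408% of all genes (5 genes, all lower in obese pigs) did. The direction of such genes changed with the fit. It went from 0 higher of 5 to 9 higher of 17 with voom weights and 18 higher of 21 in females alone. With the whole size factor, which divides depth out as in the normalized counts, 2 of 9 were higher. NKG7 had the largest difference, 0.84 on the log2 scale (SE 0.294, 95% interval 0.24 to 1.44, p = 0.00704, adjusted p = 0.156). It was the only one with an unadjusted p under 0.05 for a higher level, as had 6.81% of all genes, and 7.88% had one for a lower level. With the whole size factor this balance turned, with 1027 genes for a higher and 892 for a lower level. CD2 was 0.61 higher (SE 0.378, adjusted p = 0.469), LCK 0.48 higher (SE 0.395, adjusted p = 0.606) and GNLY 0.46 higher (SE 0.406, adjusted p = 0.645). CD247 differed by -0.04 (SE 0.158, adjusted p = 0.944), with an interval of -0.36 to 0.28.

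Without obese 1, 2 and 3 the difference changed sign for CD2 (-0.03, interval -0.65 to 0.59), LCK (-0.14, interval -0.77 to 0.49) and GNLY (-0.28, interval -0.90 to 0.35). Since those 3 pigs were chosen as the highest, these values are a description and no test of the difference. NKG7 kept a difference of 0.59 (interval -0.04 to 1.22, p = 0.0662, adjusted p = 0.372), and CD247 was at -0.26 (adjusted p = 0.403). Lean 2, the lean male with the highest NKG7, moved the result the other way. Without it NKG7 was 1.01 higher in obese pigs and passed (adjusted p = 0.0346), and the number of genes passing went from 5 to 292. Lean 2 is named as the highest lean pig, so leaving it out had to raise the difference of NKG7. In the 35 other fits with 1 pig left out NKG7 did not pass. Lean 2 also had the highest PTPRC (742) and CD68 (879) of the lean pigs.

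**Figure D2:**
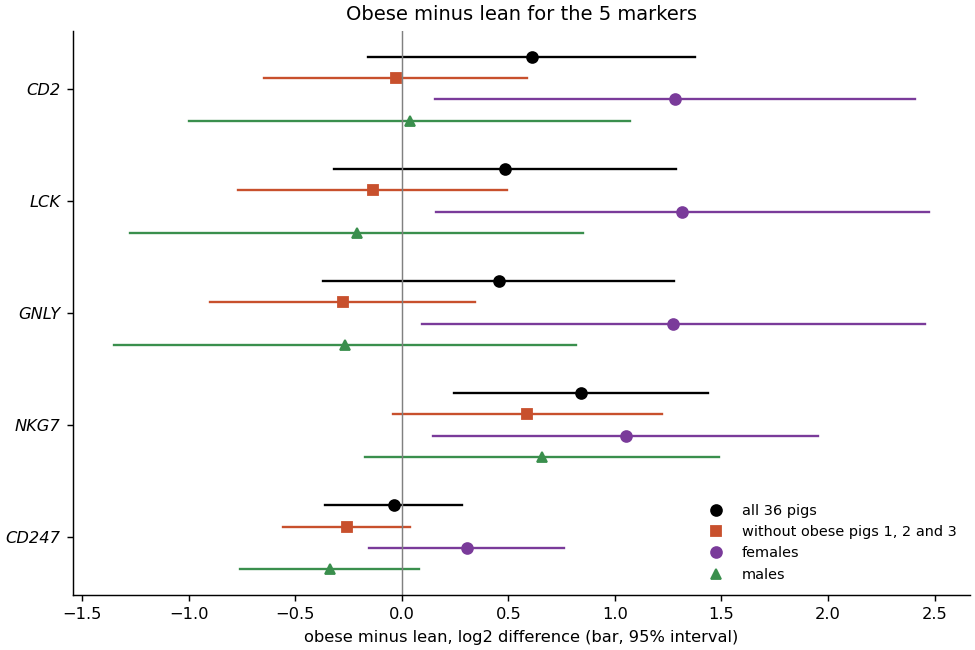
Obese minus lean for each transcript on the log2 scale with 95% intervals, over all 36 pigs, without obese pigs 1, 2 and 3, in females and in males. CD2, LCK and GNLY move from 0.46 to 0.61 over all pigs to between -0.28 and -0.03 without the 3 pigs, and their intervals include 0 both times.

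Intermediate pigs were close to lean pigs for all but NKG7. NKG7 was 0.65 higher (SE 0.294, p = 0.0343, adjusted p = 0.366), LCK differed by -0.02, CD2 and CD247 by -0.06 each and GNLY by -0.17. An unadjusted p under 0.05 for a higher level was found for 5.71% of all genes, and 0% passed with adjustment by limma (1535 genes had an unadjusted p under 0.05). Obese minus intermediate gave 0.67 for CD2, 0.62 for GNLY, 0.50 for LCK, 0.19 for NKG7 and 0.02 for CD247. Here too 0% of genes passed, and 524 had an unadjusted p under 0.05. Both comparisons share pigs with obese minus lean. A straight line over the 3 groups, which 0.0245% of genes passed, gave NKG7 0.42 per step (SE 0.146, adjusted p = 0.156) and the other transcripts between -0.02 and 0.30 per step. For NKG7 the larger step was the one from lean to intermediate pigs, and for CD2, LCK and GNLY the one from intermediate to obese pigs, and the steps were not tested against each other.

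The SD within the obese group was the largest of the 3 groups for CD2, LCK and GNLY, but no difference in spread passed its test. The SD of the log2 values in lean, intermediate and obese pigs was 0.59, 0.93 and 1.56 for CD2, 0.53, 1.00 and 1.51 for LCK, and 0.61, 0.80 and 1.66 for GNLY. It was 0.81, 0.87 and 0.82 for NKG7 and 0.29, 0.45 and 0.44 for CD247. After group and sex, the SD over all pigs was 0.97 for CD2, 1.01 for LCK and 1.04 for GNLY, above 97.5%, 97.9% and 98.3% of all genes, where the median gene had 0.33. This ranking takes no account of level, and the mean log2 levels of these 3 transcripts were above only 17.5%, 5.96% and 25.8% of all genes, where counting error is larger. The SD was 0.75 for NKG7 and 0.40 for CD247. The SD that read counting alone would give in the obese pigs was 0.21 for CD2, 0.29 for LCK and 0.17 for GNLY. Absolute deviations from the group median were compared with limma. They were 0.68 larger in obese than lean pigs for GNLY (SE 0.275, p = 0.0153, adjusted p = 0.937), 0.50 for CD2 (p = 0.0552) and 0.45 for LCK (p = 0.103), and none passed. Over all genes 0.00816% passed and 5.05% had an unadjusted p under 0.05. Without the 3 pigs the differences were 0.21 for GNLY, 0.12 for CD2 and -0.0046 for LCK.

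Whether males and females differed was asked in the same fit, and none of the 5 passed. The study's methods name a gender correction at normalization, but the deposited values gave whole reads, so sex was fitted here as if uncorrected. The males had a lower fitted level for each, from CD2 as the farthest from 0 to CD247 as the nearest. CD2 differed by -1.07 on the log2 scale (SE 0.310, interval -1.70 to -0.44, p = 0.00144, adjusted p = 0.0563). LCK was at -0.86 (SE 0.323, adjusted p = 0.144), GNLY at -0.85 (SE 0.333, adjusted p = 0.161) and NKG7 at -0.74 (SE 0.240, adjusted p = 0.0857). CD247 was at -0.11 (SE 0.130, adjusted p = 0.689). Of all genes 2.19% passed, and 4 of the 5 had an unadjusted p under 0.05 for a lower level in males, against 10.3% of all genes. Those were 1264 genes, with 981 for a higher level, and 1211 and 1171 with the whole size factor. CD2 sat at the threshold. It passed when the median of each pig was subtracted (adjusted p = 0.0494), with the whole size factor (adjusted p = 0.0492) and with voom weights (adjusted p = 0.0479). Median normalized counts in females and males were 56.0 and 38.8 for CD2, 28.9 and 20.5 for LCK, 103 and 54.7 for GNLY, 213 and 97.0 for NKG7, and 624 and 545 for CD247. On the log2 values, whose order can differ from that of these counts, females lay above the male median in 15 of 17 pigs for CD2, GNLY and NKG7. They did so in 14 for LCK and in 10 for CD247.

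Obese 1, 2 and 3 are females and carried part of that difference. Without them males differed by -0.61 for CD2 (p = 0.0170, adjusted p = 0.313), -0.56 for NKG7 (p = 0.0304, adjusted p = 0.381), -0.42 for LCK (adjusted p = 0.529), -0.33 for GNLY (adjusted p = 0.625) and 0.04 for CD247 (adjusted p = 0.929). The number of genes passing for sex went from 268 to 71.

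Obese minus lean was also taken in each sex. In females it was 1.32 for LCK, 1.28 for CD2, 1.27 for GNLY, 1.05 for NKG7 and 0.30 for CD247. None passed (adjusted p of 0.255 to 0.520), as 0.0326% of all genes did, and 4 of the 5 had an unadjusted p of 0.0239 to 0.0352 for a higher level, against 5.38% of all genes under 0.05. Without obese 1, 2 and 3 it was -0.08 for LCK, -0.20 for CD2, -0.31 for GNLY, 0.45 for NKG7 and -0.12 for CD247 in females. In males it was 0.66 for NKG7, 0.04 for CD2, -0.21 for LCK, -0.27 for GNLY and -0.34 for CD247, and none passed (adjusted p of 0.506 to 0.986), as 0.00816% of all genes did. None had an unadjusted p under 0.05 in males, while 8.5% of all genes had one for a higher level. The interaction of sex with obese minus lean, which tests whether these differ, was -1.54 for GNLY (p = 0.0590), -1.53 for LCK (p = 0.0562), -1.24 for CD2 (p = 0.108), -0.64 for CD247 (p = 0.0422) and -0.39 for NKG7 (p = 0.519). None passed with adjustment (adjusted p of 0.369 to 0.808). Over all genes 0.00816% passed, 12.9% had an unadjusted p under 0.05 and the median interaction was 0.09. The log2 values keep part of the depth of the libraries, and what part depth had in this median was not tested. Without obese 1, 2 and 3 the interaction was 0.05 for GNLY, -0.13 for LCK, 0.24 for CD2, -0.22 for CD247 and 0.21 for NKG7.

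**Figure D3:**
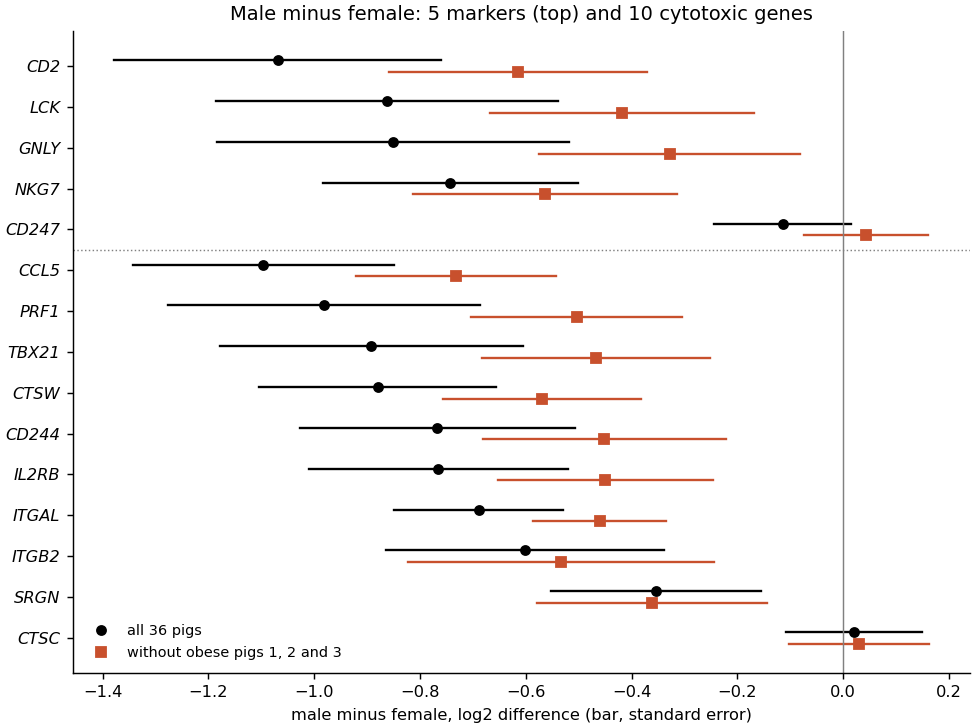
Male minus female on the log2 scale with standard errors for the 5 transcripts and 10 cytotoxic lymphocyte genes, over all 36 pigs and without obese pigs 1, 2 and 3. CD2 lies at -1.07 over all pigs and at -0.61 without the 3, and CCL5, ITGAL and CTSW are the cytotoxic genes that passed over all pigs.

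The 5 transcripts did not vary as 1 block from pig to pig. Correlations were taken over the 36 pigs on the log2 values after removal of group and sex, with permutation tests and adjustment over the 10 pairs. CD2 and LCK varied together most closely, with a Pearson r of 0.863 and a Spearman rho of 0.821 (permutation p = 1e-05 for both, the smallest that 100000 resamples can give, adjusted p = 0.0001). The correlation was 0.795 without the 2 pigs farthest from the median of CD2, which were obese 1 and obese 2, and 0.758 without obese 1, 2 and 3. Of the 10 pairs 6 passed over all pigs. The values without the 3 pigs are given for the pairs below with no test, since these pigs were chosen as the highest.

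For GNLY with CD2 the Pearson r was 0.631 (rho 0.507, permutation p = 3e-05 and 0.00165, adjusted p = 0.00015 and 0.00413), 0.484 without obese 1 and 2, and 0.237 without all 3. GNLY with LCK went from 0.572 to 0.166, and without only obese 1 and 2, the pigs farthest from the median of LCK, it was 0.361 and no longer passed (adjusted p = 0.0521 by permutation). Without all 3, CD247 with CD2 went from 0.557 to 0.258. CD247 with LCK was 0.573 over all pigs and 0.331 without the 3. CD247 with GNLY, the last of the 6 pairs that passed, was 0.422 over all pigs and -0.03 without them.

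With group and sex removed, NKG7 passed with none of the other members over all pigs. Its r was 0.349 with CD2 (permutation p = 0.0373, adjusted p = 0.0533), 0.299 with GNLY, 0.188 with LCK and -0.04 with CD247. With neither term removed it was 0.519 with CD2 (permutation p = 0.00092, adjusted p = 0.00184), 0.431 with GNLY (permutation p = 0.00728, adjusted p = 0.0104) and 0.374 with LCK (permutation p = 0.0234, adjusted p = 0.026). With GNLY it also passed in the 17 females (0.687, permutation p = 0.00188, adjusted p = 0.00627), in the 12 obese pigs (0.808, permutation p = 0.00153, adjusted p = 0.00383) and without the 2 pigs farthest from the median of NKG7 (0.446, adjusted p = 0.0165 by permutation), and with CD2 in the obese pigs (0.650, permutation p = 0.0243, adjusted p = 0.0304). All of these sets hold obese 1, 2 and 3. With group and sex removed and those pigs left out, NKG7 was at 0.152 with CD2, 0.050 with GNLY, -0.081 with LCK and -0.330 with CD247. NKG7 correlated more closely with PTPRC, at 0.882 (rho 0.849), and with CD68, a lysosomal protein of macrophages, at 0.789 (rho 0.741), each with a permutation p of 1e-05 and an adjusted p of 2.86e-05 over 20 pairs of a member and a comparison gene. Without obese 1, 2 and 3 they were 0.873 and 0.867. With CD8A and PRF1, NKG7 was at 0.188 and 0.212.

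CD2, LCK and GNLY were closer to CD8A and PRF1 than to PTPRC and CD68. CD2 was at 0.846 with CD8A and 0.839 with PRF1, LCK at 0.883 and 0.834, and GNLY at 0.589 and 0.817, which are given as a description. With PTPRC they were at 0.513 (permutation p = 0.00148, adjusted p = 0.00269), 0.373 (permutation p = 0.0246, adjusted p = 0.041) and 0.351 (permutation p = 0.0349, adjusted p = 0.0537), so CD2 and LCK passed there. Without the 2 pigs farthest from the median of each, obese 1 and 2, CD2 was at 0.384 and LCK at 0.169 with PTPRC (adjusted p of 0.0451 and 0.423 by permutation). With CD68 they were at 0.05, -0.15 and -0.04. Without the 3 females CD2 and LCK had 0.742 and 0.774 with CD8A, and GNLY had 0.578 with PRF1 and 0.262 with CD8A. CD247 was at 0.633 with CD8A and 0.521 with PRF1 over all pigs, and at 0.455 and 0.124 without the 3.

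**Figure D4:**
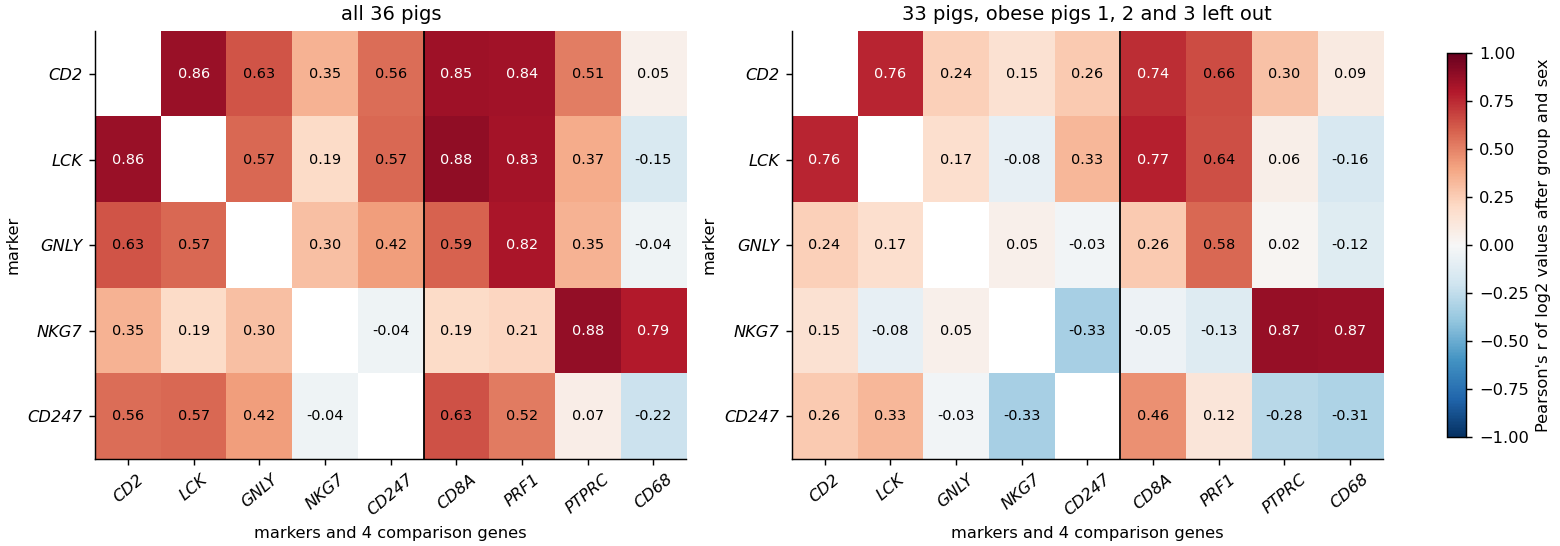
Pearson's r of log2 values after removal of group and sex between the 5 transcripts and with CD8A, PRF1, PTPRC and CD68, over all 36 pigs (left) and 33 pigs (right). CD2 with LCK is at 0.863 and 0.758, GNLY with CD2 at 0.631 and 0.237, and NKG7 is closest to PTPRC and CD68 in both.

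The genes most alike among all named genes were found with the same correlation and are given as a description. For CD2 they were LCK, CD8A, PRF1, TBX21 and SEPTIN1 (r of 0.863 to 0.768), and for LCK CD8A, SEPTIN1, CD2, TBC1D10C and PRF1 (0.883 to 0.834). For GNLY they were PRF1, TBX21, FUNDC1, PSME2 and AGRN (0.817 to 0.734), of which PRF1 and TBX21 are genes of cytotoxic lymphocytes. For NKG7 they were MYO1F, IL2RG, FERMT3, MAP4K1 and ARHGAP30 (0.941 to 0.885), among which IL2RG encodes the common gamma chain of cytokine receptors and FERMT3 the integrin activator of blood cells. For CD247 they were BCAM, HADH, UNC93A, ORMDL3 and AMZ2 (0.761 to 0.720). BCAM is a laminin receptor of epithelium and red cells and HADH an enzyme of fatty acid oxidation. None of the genes nearest to CD247 belongs to the lists of lymphocyte genes used here, and the same held for the genes nearest to NKG7.

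**Figure D5:**
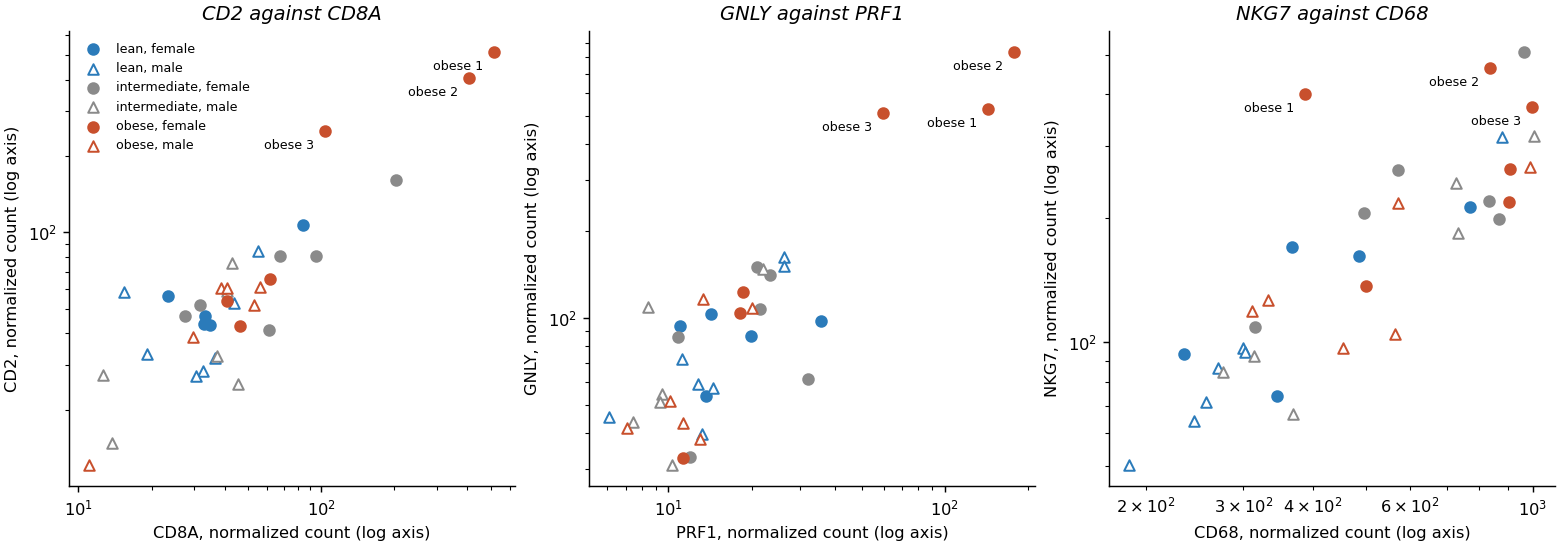
Normalized counts of CD2 against CD8A, GNLY against PRF1 and NKG7 against CD68 in each pig (log axes), coloured by group, with circles for females and triangles for males. Obese 1, 2 and 3 lie apart in the first and second plot, with GNLY of 515 to 835 against at most 163 in the other pigs, and within the cloud for NKG7 against CD68 apart from obese 1.

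The other genes of the pathway were taken from lists of known T cell, receptor signalling and cytotoxic genes, of which only part had a row with that symbol. Among T cell surface and identity genes 3 of 24 had one, and the CD3 chains and CD4 are not analysed here. None of the 3 passed for obese minus lean. CD8A was at 0.81 (SE 0.399, p = 0.0511, adjusted p = 0.344) and at 0.22 without obese 1, 2 and 3. IL7R was at 0.65, and GATA3, a transcription factor of helper T cells, at -0.56 (p = 0.0452, adjusted p = 0.325).

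Of 25 genes of T cell receptor signalling 13 had a row, and none passed for obese minus lean. An unadjusted p under 0.05 was found for 7 with a higher and 1 with a lower level in obese pigs, against 6.81% and 7.88% of all genes, and the median difference was 0.46 against -0.01 over all genes. CD48, a ligand of lymphocyte receptors on many white blood cells, was at 1.33 (SE 0.372, adjusted p = 0.0858) and PTPRC at 0.88 (SE 0.240, adjusted p = 0.0770). PLCG1, a phospholipase downstream of the receptor that other tissues share, was at -0.35 (SE 0.0959, adjusted p = 0.0770). Without the 3 females 4 genes had an unadjusted p under 0.05 for a higher level, as had 5.66% of all genes, and the median was 0.34. For male minus female 10 of the 13 had an unadjusted p under 0.05 for a lower level in males, against 10.3% of all genes, and none passed. NFATC2, a transcription factor downstream of the receptor, had one for a higher level in males (0.71, SE 0.240, p = 0.00544, adjusted p = 0.103), against 8.01% of all genes, and is named after its value was seen. Without the 3 females 5 had one for a lower level, against 5.3% of all genes, and NFATC2 was at 0.59.

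Of 39 cytotoxic lymphocyte genes 10 had a row. None passed for obese minus lean, 6 had an unadjusted p under 0.05 for a higher level (6.81% of all genes) and none for a lower one, and the median was 0.58. ITGB2, the beta-2 integrin chain that macrophages share, was at 1.25 (SE 0.322, adjusted p = 0.0740), ITGAL, its partner in lymphocytes, at 0.69 (SE 0.195, adjusted p = 0.090), and SRGN, the core protein of secretory granules, at 0.66 (SE 0.243, adjusted p = 0.176). CCL5, a chemokine of killer cells, was at 0.79 (SE 0.302, adjusted p = 0.195). Without the 3 females 3 had an unadjusted p under 0.05 for a higher level, against 5.66% of all genes. The median was then 0.26, against -0.03 over all genes. PRF1 was at -0.22, CTSW at -0.25 and TBX21 at -0.10, while ITGB2 stayed at 1.15. For male minus female 3 of the 10 passed, all lower in males, against 2.19% of all genes in either direction. They were CCL5 at -1.10 (adjusted p = 0.0135), ITGAL at -0.69 (adjusted p = 0.0153) and CTSW at -0.88 (adjusted p = 0.0285), which are named here after their values were seen. None of the 3 passed without obese 1, 2 and 3, with -0.73, -0.46 and -0.57.

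Genes of macrophages are given beside NKG7, which correlated with CD68. Of 20 macrophage and monocyte genes 14 had a row. None passed. An unadjusted p under 0.05 for a higher level in obese pigs was found for 13, against 6.81% of all genes, and the median was 0.80. Without the 3 females it was found for 14, against 5.66% of all genes. LYZ, the lysozyme of phagocytes, was at 1.72 (SE 0.515, adjusted p = 0.106), MSR1, a scavenger receptor, at 1.55 (SE 0.486, adjusted p = 0.114) and SPI1, the transcription factor PU.1 of myeloid and B cells, at 0.83 (SE 0.248, adjusted p = 0.106). The summed count of the 14 genes was 2937 to 15546 in lean, 4999 to 14644 in intermediate and 6204 to 15693 in obese pigs, with medians of 4415, 10029 and 10694. What part macrophages had in the level of NKG7 was not tested.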

How the data were processed

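RNA of subcutaneous adipose tissue was sequenced from 36 pigs after selection of poly-A RNA. Paired reads were aligned by the authors with STAR (Sscrofa10.2), and genes were counted in HTSeq. Low genes were then dropped and DESeq size factors were passed to voom, which gave the log2 values that the authors deposited. From the steps between low values, each is the log2 of reads plus 0.5 over the size factor plus 1, times a constant. Because of the added 1, these values keep part of the difference in depth between libraries. The setting called whole size factor divides by the size factor alone. In the least regular column 99.85% of values gave a whole read count within 0.1. The study's methods name a gender correction at the voom step, which values on whole-read steps do not show, so sex was fitted here. Whether counting used the strand is not given in the sources used here.

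Symbols came from a table of gene names that held 8320 of the 12253 identifiers. The transcripts and the gene lists were chosen with earlier results of these data known. The lists beside the 5 transcripts were T cell surface, T cell receptor signalling, cytotoxic, B and plasma cell, macrophage, lymph node, adipocyte, muscle and red cell genes. From these lists the genes named were those that passed, the 3 with the lowest p for obese minus lean, and fixed cell markers. Beside them stand XBP1, VPREB3 and the list genes that the text marks as chosen after their values were seen. One gene of the lymph node list is not reported here.

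Differences were fitted with limma 3.58.1 in R 4.3.3 (group and sex, empirical Bayes with an intensity trend, 2-sided tests, adjusted p under 0.05). The fit was tested on simulated data. Fold changes are on the log2 scale of the deposited values. Correlations used 100000 resamples in Python 3.11.15 with scipy 1.17.1. The alternatives tried are in the closing section, and leaving out obese pigs 1, 2 and 3 was chosen after seeing the data. Replicate numbers only name pigs.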

Additional observations from a re-analysis of the deposited data

How the results depend on the processing

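The limits of these data are the few reads of LCK, the small groups per sex, and gene counts that single pigs moved. No comparison of a transcript between groups passed under any other setting tried, apart from NKG7 without lean 2. Of the 1145 recomputed differences between groups or sexes for the 5 transcripts, 1074 kept their direction and side of the threshold, 13 passed where the first fit did not, and 58 changed sign. None of the 5 passed in the first fit, so keeping the side meant not passing, and most refits left out 1 pig. The size could still change, as CD2 for obese minus lean kept its direction at 0.037 to 1.28. The causes were not tested.

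The number of genes that passed for obese minus lean (5) was 3 with no sex term, 17 with only the groups compared, 12 with no intensity trend, 9 with the pig median subtracted or the whole size factor, 17 with voom weights (9 higher in obese pigs), 1 without the lowest 25% of genes, 2 in males alone and 21 in females alone (18 higher). For the linear trend (3 genes) it was 5 with no intensity trend, 6 with the pig median subtracted, 24 with voom weights, 21 in females and 11 without obese pigs 1, 2 and 3. For male minus female it was 71 without those pigs, and for the interaction and the spread 0 in place of 1 (1715 and 478 genes at an unadjusted p under 0.05 by limma). Leaving out 1 pig at a time gave 1 to 292 genes for obese minus lean, 1 to 274 for the trend, 147 to 546 for sex and 0 to 6 for intermediate minus lean. The highest were without lean 2 (292, of which 191 higher in obese pigs, and 274) and without lean 1 (546), the lowest for sex was without obese 1, and lean 8 gave 204 and 145 for obese minus lean and the trend.

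CD2 for male minus female passed with the pig median subtracted (-1.06), the whole size factor (-1.06) and voom weights (-1.13), and without lean 1, 4 or 5, intermediate 7 or obese 7 or 9, in a range of -1.17 to -0.93 over the left-out pigs. NKG7 passed for sex without lean 1 or lean 2 (range -0.84 to -0.67) and for obese minus lean without lean 2 (range 0.75 to 1.01), where it also passed for the trend (0.50, adjusted p = 0.0406 by limma).

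Without obese pigs 1, 2 and 3 these changed sign. For obese minus lean they were CD2 (-0.029), LCK (-0.14) and GNLY (-0.28), for the trend CD2 (-0.015), LCK (-0.064) and GNLY (-0.14), for obese minus intermediate CD2 (-0.0038), CD247 (-0.21), NKG7 (-0.073), LCK (-0.16) and GNLY (-0.16), for intermediate minus lean LCK (0.022), for sex CD247 (0.043), for the spread CD247 (-0.12), NKG7 (-0.12) and LCK (-0.0046), for obese minus lean in females CD2 (-0.20), LCK (-0.08), CD247 (-0.12) and GNLY (-0.31), and for the interaction CD2 (0.24), NKG7 (0.21) and GNLY (0.048). In males alone LCK (-0.21) and GNLY (-0.27) did for obese minus lean, LCK (-0.11) and GNLY (-0.14) for the trend, and CD247 (-0.25) and GNLY (-0.053) for obese minus intermediate. In females alone CD247 did for obese minus lean (0.30), intermediate minus lean (0.0072) and the trend (0.16).

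Intermediate minus lean, near 0 for CD2 and LCK, changed sign for CD2 with no sex term (0.026), voom weights (0.020) and in females (0.27), and for LCK with no sex term (0.056), only the groups compared (0.014), the pig median subtracted (0.0041), the whole size factor (5.55e-05), a pseudocount of 5 (0.021), voom weights (0.070) and in females (0.51). The spread of CD247 changed sign with the pig median subtracted (-0.043) and the whole size factor (-0.034). Over the left-out pigs CD2 lay at -0.18 to 0.053, CD247 at -0.11 to 0.035 and LCK at -0.14 to 0.11 for intermediate minus lean, and CD247 at -0.10 to 0.020 for obese minus lean, -0.050 to 0.0089 for the trend and -0.080 to 0.080 for obese minus intermediate.

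Of the 6 pairs of transcripts that passed, 1 did in males, 0 in lean pigs and 1 in intermediate pigs. LCK with GNLY no longer passed without the 2 farthest pigs (0.361, adjusted p = 0.0521 by permutation), and CD247 with GNLY did not in females (0.479, adjusted p = 0.066 by permutation). NKG7 gained pairs that passed, with CD2, GNLY and LCK with no terms removed (0.519, 0.431 and 0.374), with GNLY in females (0.687), in obese pigs (0.808) and without the 2 farthest pigs (0.446), and with CD2 in obese pigs (0.650). All of these settings hold obese pigs 1, 2 and 3, without which NKG7 was at 0.050 with GNLY and 0.152 with CD2. CD2 with NKG7 changed sign in lean pigs (-0.15), and CD247 with NKG7 with no terms removed (0.0095), in obese pigs (0.49) and without the 2 farthest pigs (0.035). CD247 with GNLY did so in males (-0.0051) and without obese pigs 1, 2 and 3 (-0.030), NKG7 with LCK in males (-0.056), lean pigs (-0.52) and without the 3 pigs (-0.081), and NKG7 with GNLY in males (-0.19) and lean pigs (-0.30). CD2 and LCK fell in the 25% of genes with the lowest levels, so they have no value without these genes. No paired analysis was possible because the replicate numbers only name pigs.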

Other observations

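Of 22 B and plasma cell genes 5 had a row, and none passed for obese minus lean. BANK1, an adaptor of B cell receptor signalling, was at 0.88 (SE 0.256, adjusted p = 0.0967), CD22, a B cell lectin, at 0.85 (SE 0.283, adjusted p = 0.132) and BTK, a kinase of B and myeloid cells, at 0.92 (SE 0.333, adjusted p = 0.170). XBP1, a transcription factor of plasma cells that other secretory cells share, was at -0.22 (SE 0.108, adjusted p = 0.333) and VPREB3 at -0.15 (SE 0.193, adjusted p = 0.782). An unadjusted p under 0.05 was found for 3 with a higher and 1 with a lower level, against 6.81% and 7.88% of all genes. The median of the 5 was 0.85, and 0.71 without obese pigs 1, 2 and 3. Of the lymph node and homing genes, CCL19, a chemokine that draws T cells, was at -0.43 (adjusted p = 0.227) for obese minus lean.

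Of 12 adipocyte genes 6 had a row, and none passed for obese minus lean. CIDEC, a lipid droplet protein, was at 0.54 (SE 0.162, adjusted p = 0.106), PLIN4 at 0.74 (SE 0.311, adjusted p = 0.241) and LIPE, the hormone-sensitive lipase, at 0.10. For male minus female 2 of the 6 passed, both lower in males, against 2.19% of all genes in either direction. These were LIPE at -0.55 (adjusted p = 0.00534) and PNPLA2, the lipase that starts the breakdown of stored fat, at -0.37 (adjusted p = 0.0483), and they were named after their values were seen. Without obese pigs 1, 2 and 3 neither passed (LIPE at -0.46, adjusted p = 0.0505). Of 14 skeletal muscle genes 2 had a row, DES at -0.60 and TNNC2 at -0.07 for obese minus lean. Of 7 red cell genes 2 had a row, HBB at 0.88 and ALAS2 at 0.74, and none of these 4 passed.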
